A study of Mus musculus with 12 samples.

Results

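Gad1, Gad2, Abat, Aldh5a1 and Gabrp, 5 genes of GABA metabolism and reception, are described here among the 23284 genes of a table of mouse prostate RNA. They were picked by name, with the genotype comparison of the same libraries already known, so their values are given as a description with no test. Poly-A selected RNA of prostate tissue from 4-month-old mice had been sequenced. There were 6 libraries from null mice, homozygous (-/-) for a null allele of Nkx3.1, and 6 from wild-type (+/+) mice. Both genotypes were on a hybrid background of 129/SvImJ and C57Bl/6J. The labels name neither the lobes taken nor separate animals behind the libraries, so a p-value here reflects only how these libraries scatter, part of which can be technical.

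GABA, gamma-aminobutyric acid, is made from glutamate by glutamate decarboxylase, which needs the cofactor pyridoxal phosphate. Gad1 and Gad2 encode its alternative forms, of which the Gad2 product is best known from synaptic vesicles and pancreatic islet cells. Abat encodes GABA transaminase, which turns GABA into succinic semialdehyde, and Aldh5a1 encodes the dehydrogenase that oxidises this product to succinate for the TCA cycle; the detour is called the GABA shunt. Gabrp encodes the pi subunit of the GABA-A receptor, a ligand-gated chloride channel, and is known from reproductive tissue rather than brain.

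The RefSeq promoter windows (GRCm38.p6, 250 bases before to 50 after the start) of both decarboxylase genes and of Gabrp are shown because Gad2 and Gabrp stood higher in null prostate while Gad1 was near the floor. Gad2 lies at chr2:22622077-22622376 (plus strand), Gad1 at chr2:70561879-70562178 (plus strand) and Gabrp at chr11:33578908-33579207 (minus strand). Capitals mark the matches of 3 motifs searched on both strands, TAAGTA, a motif of homeodomain proteins, AGAACA, a part of the androgen response element, and TATAAA of the TATA box.
Gad2: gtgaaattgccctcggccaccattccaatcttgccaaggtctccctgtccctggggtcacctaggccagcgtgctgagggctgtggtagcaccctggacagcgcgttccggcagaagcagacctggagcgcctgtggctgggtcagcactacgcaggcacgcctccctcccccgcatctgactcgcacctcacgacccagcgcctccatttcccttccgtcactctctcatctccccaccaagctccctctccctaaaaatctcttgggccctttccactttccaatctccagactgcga
Gad1: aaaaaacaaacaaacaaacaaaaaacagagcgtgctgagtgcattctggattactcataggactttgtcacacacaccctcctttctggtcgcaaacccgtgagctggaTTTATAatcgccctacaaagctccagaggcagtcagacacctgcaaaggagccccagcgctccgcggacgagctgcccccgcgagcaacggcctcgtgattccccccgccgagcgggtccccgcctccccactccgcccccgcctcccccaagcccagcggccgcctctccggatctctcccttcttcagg
Gabrp: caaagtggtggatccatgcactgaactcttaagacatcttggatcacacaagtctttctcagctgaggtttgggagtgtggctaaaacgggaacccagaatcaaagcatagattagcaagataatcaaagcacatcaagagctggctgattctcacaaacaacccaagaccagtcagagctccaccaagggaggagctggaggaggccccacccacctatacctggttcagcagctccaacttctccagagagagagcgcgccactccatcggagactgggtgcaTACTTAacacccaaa
The Gabrp window held TAAGTA in reverse complement, TACTTA, beginning 36 bases into the transcript. This motif occurred in 7.59% of 32851 promoter windows of the same length. The Gad1 window held TATAAA in reverse complement, 141 bases before the start, a motif found in 13.6% of windows. The Gad2 window held none of the 3 motifs, and AGAACA, present in 19.0% of all windows, was in none of the 3 sequences. No match overlapped another, and a match in a window is a description of letters only. The Gad2 window had 14 CpG dinucleotides and 61.3% G and C, and the Gabrp window 4 and 50.3%. The medians over all windows were 7 CpG and 52.7%. Aldh5a1, on chromosome 13, also had a window, with 24 CpG and none of these motifs, and 4 of the 5 genes had one in all.

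Expression was deposited as log2 values without counts, and sequencing depth is therefore unknown. Undetected genes scattered around a floor, whose 95th percentile over 1123 olfactory receptor genes was 3.51. Within each genotype the libraries fell into triplets, called sets here. Null set 1 holds libraries 1, 2 and 5, and null set 2 holds 3, 4 and 6. Wild-type set 1 holds libraries 1 to 3, and wild-type set 2 holds 4 to 6. Null library 5 lay a median of 0.0296 from the equal mix of null libraries 1 and 2, and null library 6 lay 0.0293 from the mix of 3 and 4. Single libraries of a null set lay 0.0535 to 0.112 apart, over 3633 genes whose mean reached 10. Wild-type libraries 3 and 5 lay 0.0361 and 0.0339 from the mix of the others of their set, close to the 0.0388 to 0.0702 between single libraries there, so the likeness to a mix is less distinct in wild-type. The labels do not describe pooling. Results are therefore also given over the 4 set means and without the libraries nearest to a mix, which were null 5 and 6 and wild-type 3 and 5. Epithelial markers were detected in both genotypes. The 5 luminal genes (Krt8, Krt18, Krt19, Cd24a and Cdh1) summed to 15.25 to 15.62 in null and 15.61 to 15.83 in wild-type libraries. With limma 4 of them fell and 1 rose, Krt19, with a mean of 13.46 in null and 13.01 in wild-type libraries. The 6 basal genes summed to 11.90 to 12.44 in null and 11.46 to 11.63 in wild-type libraries, and 5 rose and 0 fell. Among all tested genes 28.0% were called higher and 25.1% lower. The 7 prostate secretory genes summed to 19.24 to 19.67 in null and 20.71 to 20.94 in wild-type libraries. With limma 2 of them rose and 5 fell, beside 28.0% higher and 25.1% lower among all tested genes. Those that rose were Wfdc15b, with a mean of 10.42 in null and 3.83 in wild-type libraries, and Clu, with 14.53 and 12.46. Among those that fell, Sbp averaged 4.07 in null and 19.12 in wild-type libraries, Msmb 9.64 in null and 15.26 in wild-type libraries, and Spink3 13.73 in null and 17.73 in wild-type libraries. The part of this difference in secretory RNA in the level of Gad2 was not tested.

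Gad2 was at a low level in wild-type prostate and among the most abundant transcripts in null prostate. Its values were 12.99, 13.35, 13.49, 13.61, 13.16 and 13.57 in null libraries 1 to 6, against 7.56, 7.59, 7.39, 5.13, 4.96 and 4.87 in wild-type libraries 1 to 6. The genotypes lay far apart, with 5.40 between the lowest null and the highest wild-type library and 8.74 between the most distant pair. The mean was 13.36 ± 0.24 in null and 6.25 ± 1.39 in wild-type libraries (SD, n = 6 each), a difference of 7.11. On the linear scale this is 138-fold, and it understates the change where the deposited scale flattens toward the floor. Of 15096 genes that passed the filter (6 or more libraries at 4 or above), Gad2 had the number 7 difference from the top. In bulk tissue, a change in the number of cells that express a gene and a change in RNA per cell cannot be told apart.

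**Figure D1:**
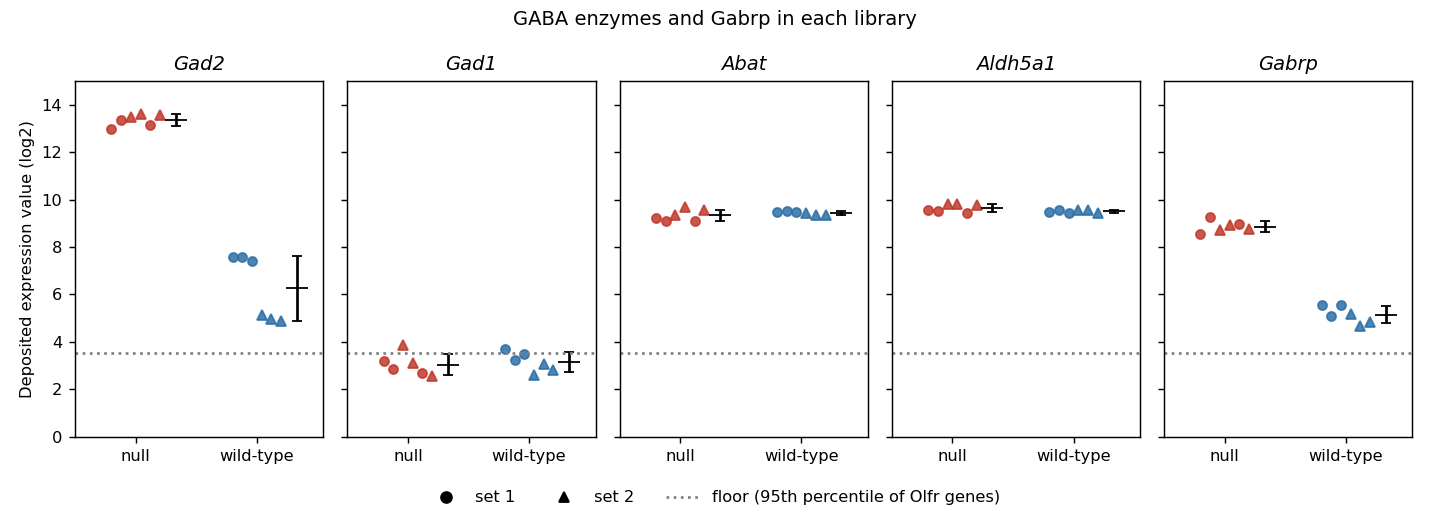
Deposited log2 expression of each gene in every library, null left and wild-type right; circles are set 1 (null 1, 2 and 5; wild-type 1 to 3), triangles set 2, and bars the mean ± SD of 6 libraries. Gad2 (12.99 to 13.61 in null, 4.87 to 7.59 in wild-type) and Gabrp separate the genotypes, Abat and Aldh5a1 overlap, and Gad1 lies about the dotted floor at 3.51.

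Set per kilobase of exon, with GENCODE exon lengths for 20858 of the genes, the level of Gad2 was 10.84 ± 0.24 on the log2 scale in null and 3.73 ± 1.39 in wild-type libraries (SD, n = 6 each). On that scale Gad2 ranked between 381 and 580 among the 20858 genes in the null libraries, and between 10680 and 16540 in the wild-type libraries. These ranks rest on summed exon lengths rather than on the transcripts made in prostate. Undetected genes also keep a value near the floor (median 2.85 over the olfactory receptor genes) before length is taken off. Short undetected genes can therefore rank above longer genes of low level, and the wild-type ranks of Gad2 are not read as an order of abundance.

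Wild-type prostate was not uniform for Gad2. It stood at 7.39 to 7.59 in wild-type set 1 and at 4.87 to 5.13 in wild-type set 2, so the sets differed by 2.52. Only 26 of 15096 genes (0.172%) had wild-type sets at least as far apart. The null sets lay closer, at 12.99 to 13.35 in set 1 and 13.49 to 13.61 in set 2, a difference of 0.39 that 16.3% of tested genes reached. Between any null set and any wild-type set the difference ran from 5.65 to 8.57. Without the libraries nearest to a mix it was 7.07.

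Gad1, the paralog of Gad2, was at the level of undetected genes. Its values were 3.18, 2.84, 3.85, 3.12, 2.67 and 2.57 in null libraries, against 3.71, 3.21, 3.49, 2.59, 3.07 and 2.81 in wild-type libraries. The genotypes overlapped, 1 library of each stood above 3.51, and the gene did not pass the filter on low values. Its mean was 3.04 ± 0.46 in null and 3.14 ± 0.42 in wild-type libraries (SD, n = 6 each).

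Abat, the GABA-degrading transaminase, was well expressed at about the same level in both genotypes. It stood at 9.24, 9.08, 9.36, 9.68, 9.09 and 9.54 in null libraries, against 9.48, 9.51, 9.46, 9.45, 9.36 and 9.34 in wild-type libraries. Of the null libraries 2 lay above and 3 below all wild-type libraries. The lower ones were null libraries 1, 2 and 5, which form a set, at 9.08 to 9.24, while null libraries 3, 4 and 6 stood at 9.36 to 9.68. The mean difference of -0.10 was smaller than the SD of 0.24 between null libraries. The difference from wild-type was -0.29 for the first null set and 0.10 for the second, so its direction depended on the set.

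Aldh5a1, which completes the shunt, showed the same division of null libraries. It stood at 9.57, 9.50, 9.80, 9.80, 9.44 and 9.79 in null libraries, against 9.48, 9.56, 9.44, 9.54, 9.54 and 9.45 in wild-type libraries. Null libraries 3, 4 and 6 lay at 9.79 to 9.80, and with null library 1 at 9.57 they lay above every wild-type library, while null library 5 lay below all of them. The mean difference was 0.15, with an SD of 0.16 in null and 0.051 in wild-type libraries (n = 6 each). It was 0.29 for null libraries 3, 4 and 6 and 0.0017 for null libraries 1, 2 and 5.

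The order of synthesis and breakdown transcripts within a library differed between the genotypes. Per kilobase of exon, the log2 level of Gad2 minus that of Abat was 3.64 to 4.15 in null libraries and -4.58 to -2.03 in wild-type libraries, so Gad2 was above Abat in every null library and below it in every wild-type library. Abat and Aldh5a1 lay close to each other, at -0.22 ± 0.12 for Abat minus Aldh5a1 in null and 0.022 ± 0.075 in wild-type libraries (SD, n = 6 each). RNA levels say nothing of enzyme activity or GABA content, neither of which was measured.

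Gabrp, the pi subunit, was higher in null prostate. It stood at 8.56, 9.24, 8.71, 8.94, 8.96 and 8.75 in null libraries, against 5.55, 5.08, 5.56, 5.17, 4.68 and 4.83 in wild-type libraries. No library of one genotype reached the range of the other, and the smallest gap was 2.99. The mean was 8.86 ± 0.24 in null and 5.15 ± 0.36 in wild-type libraries (SD, n = 6 each), a difference of 3.71 or 13.1-fold on the linear scale, number 23 from the top of 15096 genes. Between sets the difference ran from 3.40 to 4.03. In wild-type libraries its sets differed in the same direction as those of Gad2, by 0.51, a distance that 9.54% of tested genes reached. Unlike those of Gad2 they overlapped, at 5.08 to 5.56 in set 1 and 4.68 to 5.17 in set 2.

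Of the 5 genes, 2 did not overlap between genotypes, both higher in null prostate. Among all 15096 tested genes 32.6% did not overlap and 17.4% did so with null libraries higher (15.2% lower). Since these genes were chosen on this comparison, nothing is read from their count.

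**Figure D2:**
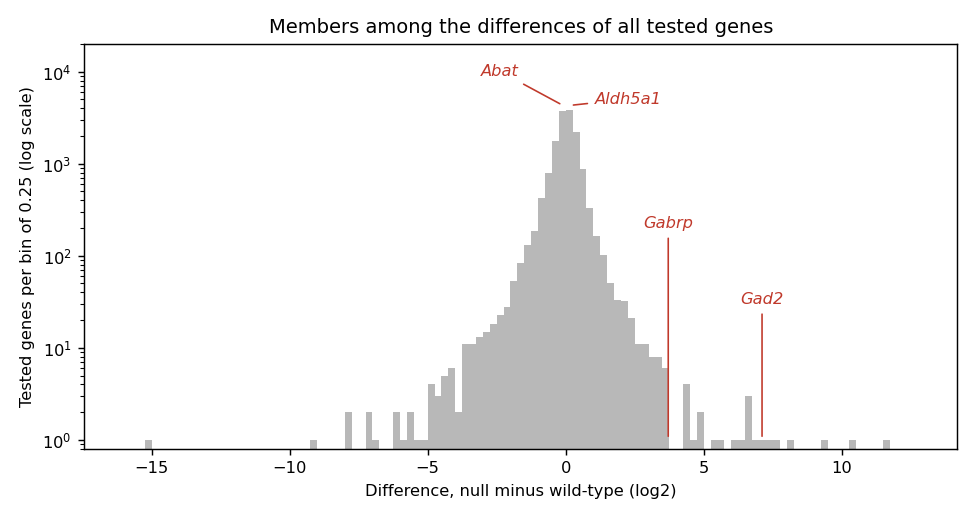
Histogram of the difference, null minus wild-type on the log2 scale, for all 15096 tested genes in bins of 0.25 with a log count axis; lines mark Gad2 (7.11), Gabrp (3.71), Aldh5a1 (0.15) and Abat (-0.10). Gad2 and Gabrp lie in the sparse right tail, Abat and Aldh5a1 in the central peak.

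To see which profiles resembled that of Gad2, centred values of all tested genes were compared over the 12 libraries by root mean square distance. The nearest was Gm17689, a gene model, at a distance of 1.21. Next were Wfdc15b, which encodes a whey acidic protein domain protein, at 1.24, and Kcnj15, an inwardly rectifying potassium channel gene, at 1.31. Svs6, a seminal vesicle secretory gene, followed at 1.32 and the sulfhydryl oxidase gene Qsox1 at 1.46. All shared the genotype step, with Kcnj15 at 10.49 ± 0.33 in null and 5.64 ± 0.41 in wild-type libraries (SD, n = 6 each) and Qsox1 at 14.89 to 16.30 in null and 9.70 to 10.71 in wild-type libraries. Within wild-type, Kcnj15 had a smaller step than Gad2 in the same direction (5.81 to 6.13 in set 1, 5.13 to 5.59 in set 2), and Qsox1 ran the other way, at 9.70 to 9.82 in set 1 and 10.52 to 10.71 in set 2. Null library 1 was low for Wfdc15b (7.98, against 10.45 to 11.43 in the other null libraries) and for Svs6 (7.04, against 8.50 to 10.82), but not to that extent for Gad2. By the same measure, applied after the values were seen, the profile nearest to Gabrp was that of Ramp1, a receptor activity-modifying protein gene, at a distance of 0.37. Likeness over these libraries is mostly the genotype difference.

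**Figure D3:**
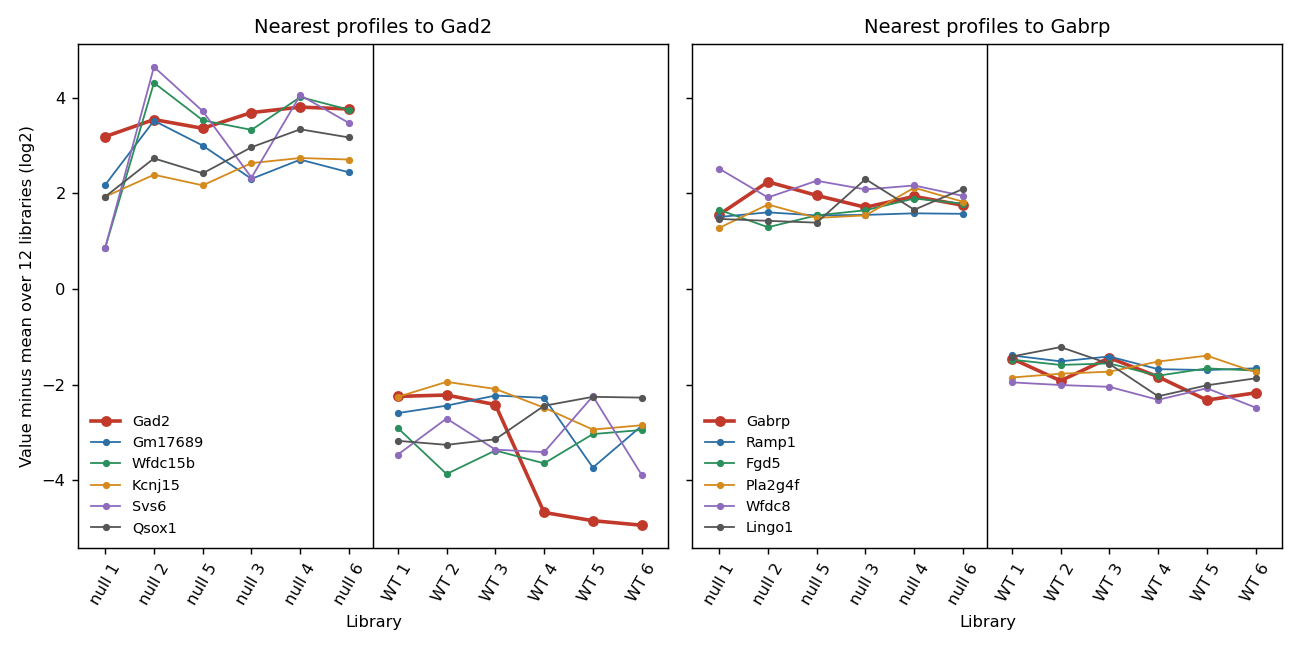
Value minus the mean over 12 libraries, on the log2 scale, for Gad2 (left) and Gabrp (right) with the 5 nearest profiles of each; null libraries stand left of the line and wild-type libraries right, and lines only join the points of a gene. Gad2 stands lower in wild-type libraries 4 to 6 than in 1 to 3, while Qsox1 stands higher there; the 5 neighbours of Gabrp lie within a distance of 0.45.

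Other genes had the wild-type step of Gad2, and those named next were picked for that likeness. The genes most like Gad2 within the 6 wild-type libraries, ranked by correlation among 521 genes with an SD of at least 0.5 there, were Ccl2, Igj, Xaf1, Svs5 and Egr3. The correlations rest on the 2 sets and are not given. Ccl2 stood at 6.26 to 6.51 in wild-type set 1 against 4.47 to 4.77 in wild-type set 2. Xaf1 stood at 8.61 to 8.71 against 7.61 to 7.71, and Egr3 at 5.37 to 5.64 against 3.86 to 4.03, in the same order of sets. Igj, the immunoglobulin J chain, stood at 11.32 to 11.38 in wild-type set 1, against 10.21 to 10.33 in wild-type set 2. Svs5, a seminal vesicle protein, stood at 9.20 to 9.22 in wild-type set 1, against 4.00 to 4.32 in wild-type set 2. In null libraries 1 to 6 Igj stood at 7.95, 5.56, 5.37, 5.07, 7.22 and 5.37. It was highest in null library 1, where Gad2 was lowest, and lowest in null library 4, where Gad2 was highest. Svs5 stood at 15.60, 17.87, 14.39, 15.60, 17.19 and 15.13, not in the order of Gad2. Between genotypes the difference was -0.98 for Ccl2, -4.71 for Igj, -1.25 for Xaf1, -0.26 for Egr3 and 9.28 for Svs5.

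Markers of cells known for Gad2 were set beside it. Of 9 GABA neuron markers, 6 (Dlx1, Dlx2, Dlx5, Dlx6, Pvalb and Slc32a1) had both genotype means at or under the floor of 3.51. Of the others, Npy averaged 5.55 in null and 5.38 in wild-type libraries, Lhx6 4.74 and 5.18, and Sst 2.73 and 3.79. The 9 genes summed to 6.54 to 8.31 in null and 6.79 to 7.63 in wild-type libraries. This sum also stepped with Gad2 within wild-type, at 7.37 to 7.63 in set 1 against 6.79 to 7.04 in set 2. Without overlap 2 of the 9 genes did so, Npy (6.24 to 6.31 against 4.17 to 4.70) and Dlx2 (2.94 to 3.37 against 1.97 to 2.66). Dlx2 lay under the floor in every library, so the step of the sum was mostly that of Npy. Of 6 pancreatic islet markers, 5 (Ins1, Ins2, Gcg, Pdx1 and Slc30a8) were at the floor, with sums of 5.47 to 5.86 in null and 5.35 to 5.74 in wild-type libraries. The 14 neuroendocrine and nerve genes summed to 9.37 to 11.31 in null and 8.87 to 10.39 in wild-type libraries, with Insm1 at the floor. Within wild-type they moved with Gad2, at 10.34 to 10.39 in set 1 against 8.87 to 9.05 in set 2, and 10 of the 14 genes did so without overlap. Within null the highest sum (11.31) was in null library 1, with the lowest Gad2 (12.99), and the lowest sum (9.37) in null library 2, with Gad2 at 13.35. Ncam1 had the highest null mean of the 14 genes (9.06), and was highest in null library 4 (9.34). Chgb, Snap25, Eno2, Nefl, Nefm, Th and Dbh were instead lowest in null library 4, where Gad2 was highest (13.61). All of these but Eno2 (5.85) stood there at 2.54 to 3.61. Ncam1, Syp and Tubb3 were lowest in null library 2, and the remaining genes in null library 1, 3 or 6. The 10 seminal vesicle genes summed to 16.85 to 20.39 in null and 8.12 to 11.81 in wild-type libraries. Their sum was higher in null set 1 (18.36 to 20.39) than in null set 2 (16.85 to 18.05), but 3 of the 10 genes (Svs1, Svs2 and Pate4) had this order without overlap, and Svs4 was lowest in null library 1 (12.38, against 16.08 to 18.20 in the other null libraries). In wild-type the sum was 11.74 to 11.81 in set 1 against 8.12 to 8.16 in set 2, an order that 4 of the 10 genes had without overlap, while Ceacam10 ran the other way (6.31 to 6.63 in set 1, 7.24 to 7.41 in set 2). The 4 urothelial genes summed to 13.22 to 14.45 in null and 12.54 to 12.78 in wild-type libraries. In null against wild-type libraries Upk1b averaged 13.31 and 11.87, Upk2 7.98 and 5.18, Upk1a 11.57 and 11.41, and Upk3a 3.95 and 3.71. The 6 adipocyte genes summed to 6.87 to 11.04 in null and 6.77 to 8.62 in wild-type libraries. The adipocyte sum also stepped with Gad2 within wild-type, at 8.42 to 8.62 in set 1 against 6.77 to 6.97 in set 2, and 4 of the 6 genes did so without overlap. The 6 skeletal muscle genes summed to 11.66 to 12.26 in null and 11.46 to 11.60 in wild-type libraries. That sum is mostly Acta1 (mean 11.79 in null and 11.34 in wild-type libraries). Of 5 tested muscle genes 1 rose and 3 fell with limma, beside 28.0% higher and 25.1% lower among all tested genes. Myh1 averaged 3.11 in null and 6.01 in wild-type libraries. The part of seminal vesicle, urothelial, fat, muscle, nerve and basal cell RNA in the level of Gad2 was not tested.

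**Figure D4:**
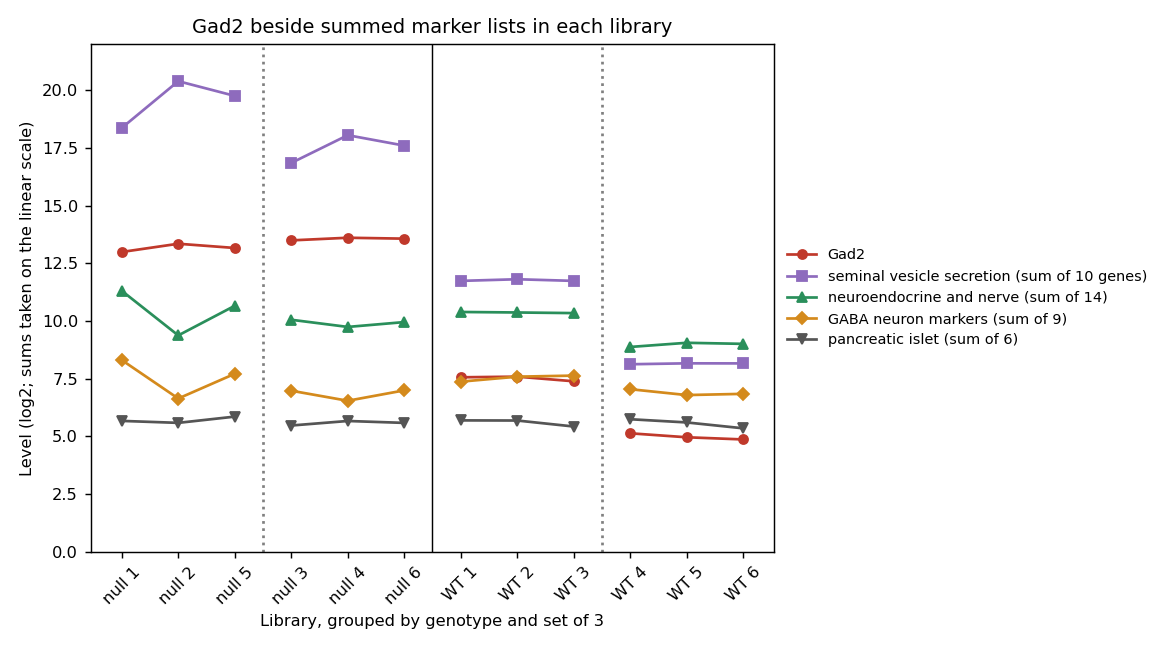
Log2 level of Gad2 and log2 of the summed linear values of 4 marker lists in each library, grouped by genotype (null left) and set of 3; lines only join points of a list. Gad2 stays at 12.99 to 13.61 across null libraries while the nerve list spans 9.37 to 11.31. In wild-type libraries Gad2 and the sums of the nerve, GABA neuron and seminal vesicle lists are all lower in libraries 4 to 6.

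Around these 5 genes, 9 lists with 88 genes of GABA reception, transport and supply were tested with limma over all 15096 genes. Among the 63 that passed the filter there were 12 that rose and 22 that fell, and 29 missed the threshold, with a median difference of -0.10 against 0.012 over all tested genes. The called share, 34 of 63 genes, was close to the 53.1% of all tested genes that were called (28.0% higher and 25.1% lower). The split depended on scaling, with 9 higher and 30 lower on the lists after upper quartile scaling and 9 and 29 after quantile normalization. Over all tested genes the same scalings gave 3367 higher and 4869 lower (upper quartile) and 4073 higher and 4174 lower (quantile), against 4224 higher and 3789 lower as deposited. Over set means 1 rose and 8 fell, 9 genes in all, where 14.5% of all tested genes were called (7.58% higher and 6.96% lower). Without the libraries nearest to a mix 25 were called, 9 higher and 16 lower, beside 37.7% of all tested genes (20.0% higher and 17.7% lower).

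GABA receptor genes other than Gabrp were mostly near the floor. Of 18 other subunits of GABA-A and GABA-rho receptors, 6 passed the filter, and 8 had both genotype means at or under the floor. Gabra4, the alpha-4 subunit, fell, with values of 6.41, 5.14, 6.06, 5.59, 5.77 and 5.90 in null libraries against 7.36, 7.56, 7.40, 6.69, 6.55 and 6.69 in wild-type libraries. Its genotypes did not overlap, and it differed by -1.23 ± 0.23 (SE; limma adjusted p = 0.000400, and 0.0465 over set means). Gabre, the epsilon subunit, rose by 0.60 to 4.88 ± 0.17 in null libraries, against 4.27 ± 0.28 in wild-type libraries (SD, n = 6 each; limma adjusted p = 0.00293, and 0.133 over set means). The other 4 tested subunits were not called.

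Of the GABA-B receptor, a G protein-coupled dimer, Gabbr1 rose and Gabbr2 did not pass the filter. Gabbr1 stood at 9.85, 9.68, 9.51, 9.45, 9.81 and 9.53 in null libraries, against 8.50, 8.59, 8.55, 8.53, 8.34 and 8.43 in wild-type libraries. All null libraries lay above all wild-type libraries, by a mean of 1.15 ± 0.073 (SE; limma adjusted p = 1.39e-08, and 0.00639 over set means), and Gabbr1 was the 1 gene of the 9 lists called higher over set means. Per kilobase of exon, the log2 level of Gabrp minus that of Gabbr1 was 0.23 ± 0.30 in null libraries and -2.34 ± 0.31 in wild-type libraries (SD, n = 6 each).

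Dedicated GABA carriers were at the floor or did not pass the filter, and 2 of 7 carriers were tested. Slc6a6, a taurine carrier, rose by 0.35 (limma adjusted p = 0.00949) and Slc36a1, a proton-coupled amino acid carrier, fell by 0.43 (limma adjusted p = 0.00856). The genotypes overlapped in both, and neither was called over set means (limma adjusted p = 0.218 and 0.206) or without the libraries nearest to a mix (0.0665 and 0.0530). Of 6 genes of GABA-A receptor trafficking, 3 fell and 3 were not called, beside 53.1% called among all tested genes. Zdhhc3, a palmitoyltransferase for receptor subunits, fell by 0.77 and Gabarapl1, a relative of the receptor-associated protein Gabarap, by 0.33. Gabarap itself fell by 0.15 with a limma adjusted p of 0.0370, a call lost without null library 1, 3, 5 or 6 or wild-type library 1, 2 or 3, in 7 of 12 repeats, with differences of -0.17 to -0.13 over all repeats. None of the 3 was called over set means.

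Among 13 enzymes that make or use glutamate, the substrate of Gad2, 3 rose, 4 fell and 6 were not called. The called share of 53.8% was close to the 53.1% of all tested genes. Psat1, which draws on glutamate for serine synthesis, fell by 0.81 and Aldh18a1, which commits glutamate to proline and ornithine, fell by 0.60. Both were also called over set means (limma adjusted p = 0.0244 and 0.0188). The largest difference on the 9 lists, seen after the values were known, was that of Gls2, a liver-type glutaminase, at -1.53 (limma adjusted p = 0.000206, and 0.0617 over set means). Gls2 stood at 4.52 to 5.21 in null libraries, against 5.80 to 7.33 in wild-type libraries.

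The TCA steps that the shunt bypasses and joins differed by little. Differences of the 10 genes lay between -0.22 and 0.23. With limma 3 rose, 4 fell and 3 missed the threshold, beside 28.0% higher and 25.1% lower among all tested genes. None was called over set means, where 0 of 10 passed limma, beside 14.5% of all tested genes. Ogdh, the oxoglutarate dehydrogenase subunit that the shunt goes round, rose by 0.23, a call lost after quantile normalization (limma adjusted p = 0.0575). Sdha and Sdhd, subunits of the succinate dehydrogenase that takes up the product of Aldh5a1, fell by 0.15 and 0.21.

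GABA can also be made from putrescine. Of 9 tested genes of that route and of succinic semialdehyde reduction, 1 rose, 4 fell and 4 were not called. The called share of 55.6% was close to the 53.1% of all tested genes. Sat1, the spermidine and spermine acetyltransferase, fell by 0.47 to 10.76 ± 0.063 in null libraries, against 11.22 ± 0.065 in wild-type libraries (SD, n = 6 each; limma adjusted p = 5.93e-07, and 0.0252 over set means). Aldh9a1, which oxidises gamma-aminobutyraldehyde to GABA, fell by 0.21 and Akr1a1, an aldehyde reductase, by 0.34, neither called over set means (limma adjusted p = 0.171 and 0.122). Odc1, the decarboxylase that makes putrescine, fell by 0.88 (limma adjusted p = 4.16e-07, and 0.0127 over set means). It was the 1 of 7 tested genes of other pyridoxal phosphate-dependent decarboxylases and of cofactor synthesis to be called. Among all tested genes 53.1% were called. Gadl1, a decarboxylase related in sequence to Gad1 and Gad2, did not pass the filter.

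Of 9 tested carriers of glutamate, aspartate and neutral amino acids, 2 rose, 4 fell and 3 were not called. Among all tested genes 28.0% were called higher and 25.1% lower. Slc1a5, the glutamine carrier, fell to 12.78 ± 0.17 in null libraries, against 13.37 ± 0.065 in wild-type libraries (SD, n = 6 each; limma adjusted p = 6.46e-06, and 0.0476 over set means). Slc1a4, a related carrier of neutral amino acids, fell by 0.85, also over set means (limma adjusted p = 0.0225). Slc25a13, a mitochondrial carrier that exchanges aspartate for glutamate, fell by 0.49 but was not called over set means (limma adjusted p = 0.0627).

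**Figure D5:**
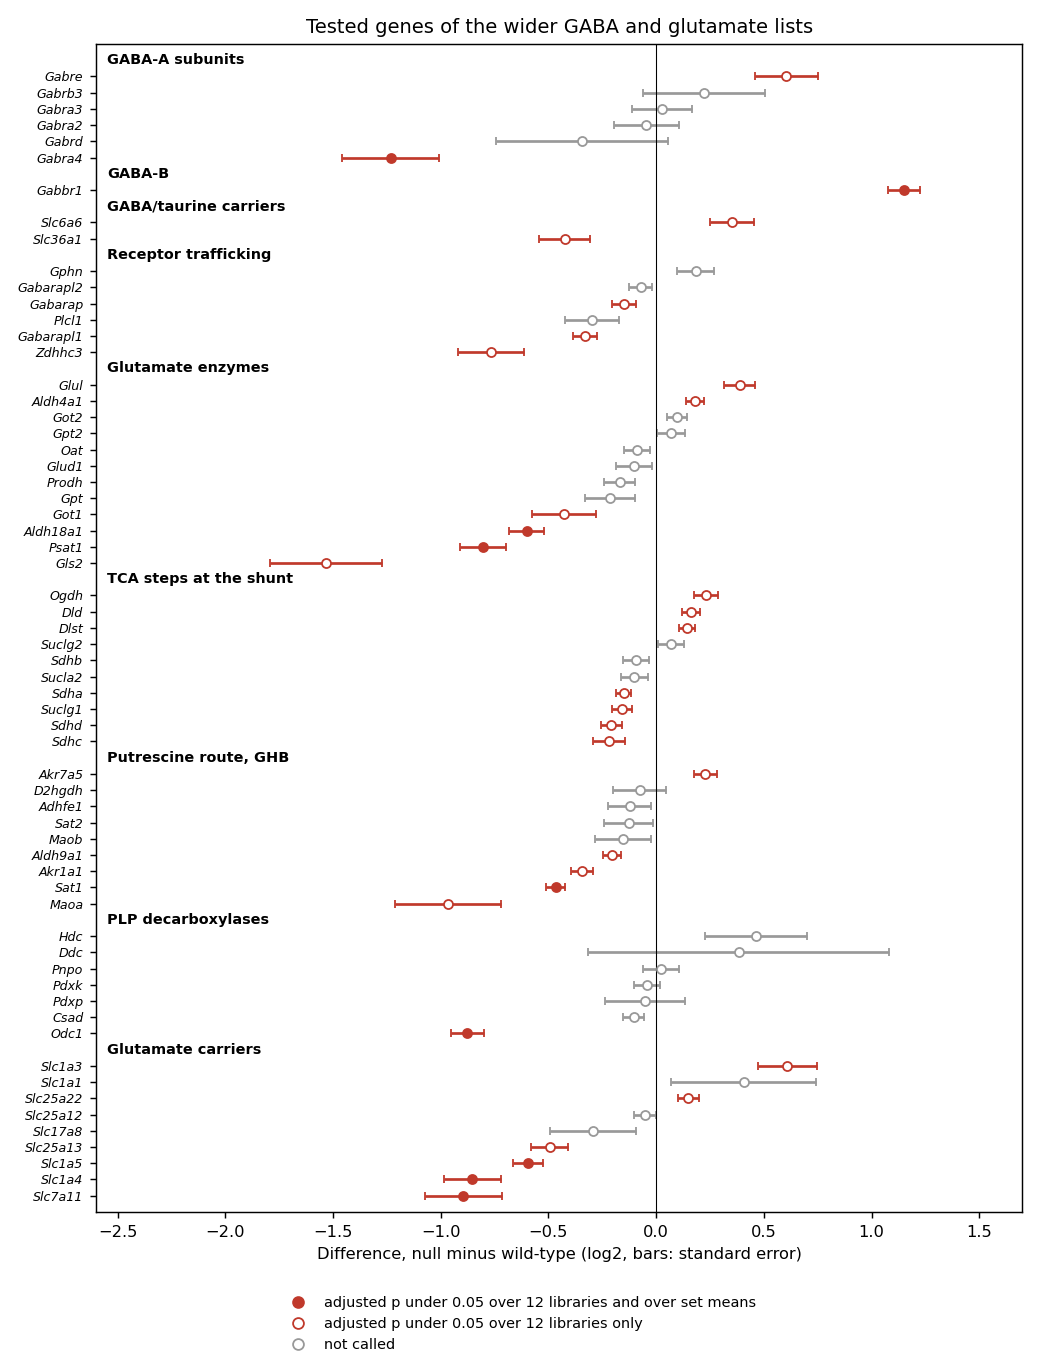
Difference, null minus wild-type on the log2 scale with its standard error, for 62 of the 63 tested genes of the 9 lists; filled red points passed limma over 12 libraries and over set means, open red points over 12 libraries only, and grey points in neither. Gabbr1 at 1.15 is the 1 filled point on the right, and 8 filled points lie on the left.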

How the data were processed

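The table deposited by the authors held log2 expression values of 23284 genes in 12 libraries, from 1.07 to 21.6, with the form of variance-stabilised values. How they were transformed was not stated in the sources used here. Per the labels' protocols, poly-A selected RNA was made into TruSeq libraries for a HiSeq instrument. Build mm9 and the tools DESeq, Cufflinks 2.0.2, TopHat2 2.0.4 and CASAVA 1.8.2 appear, without roles, in the submitters' processing notes. Genotypes were compared with limma 3.58.1 in R 4.3.3 on deposited values, after a filter of at least 4 in at least 6 libraries. The fit used trend and robust moderation, Benjamini-Hochberg adjustment over 15096 genes and a threshold of 0.05. It was also run on simulated data with known differences. The simulated libraries were independent and had no sets, so that run cannot show how the fit behaves with sets. The 5 genes and the 9 lists were chosen with earlier results of these data known. Named from each list were up to 3 called genes with the lowest adjusted p, and the 5 profiles nearest to Gad2 by each of 2 measures. Exon lengths came from GENCODE M21. Sets are the split of each genotype into triplets whose middle library came closest to an equal mix of the remaining pair. Summed marker levels were taken on the linear scale. Library quality and depth could not be judged without counts. The levels of the targeted gene and of some list genes are not reported here. Alternatives are listed with the limits.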

Additional observations from a re-analysis of the deposited data

How the results depend on the processing

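Under each of the 19 alternatives the difference of each of the 5 genes moved by less than the larger of its genotype SDs, but Aldh5a1 (0.15 as deposited) and Abat (-0.10) moved by more than their wild-type SDs of 0.051 and 0.069 under upper quartile scaling. Leaving out each library in turn gave 6.83 to 7.38 for Gad2, 3.62 to 3.80 for Gabrp, -0.17 to -0.049 for Abat, 0.12 to 0.19 for Aldh5a1 and -0.27 to 0.0063 for Gad1, which changed sign at the floor and was 0.17 without the libraries nearest to a mix. Quantile normalization gave 7.05, 3.75, -0.15, 0.086 and -0.072 in that order of genes, while shifting libraries to a common upper quartile gave 7.04, 3.64, -0.17, 0.077 and -0.18. With the 4 set means as samples, 1 gene of the wider lists was called higher and 8 lower, and 1144 and 1051 of all tested genes; fewer samples enter that fit. Leaving out a library gave 12 to 13 higher and 20 to 23 lower on the wider lists, and 4022 to 4185 higher and 3518 to 3754 lower over all tested genes. Of 398 values of the 21 named wider genes under the alternatives, 373 kept their call and direction, 25 lost the call and 0 reversed. The alternatives were quantile normalization, upper quartile scaling, no filter, a filter at 5, limma without trend and robust moderation, set means, leaving out the libraries nearest to a mix, and each library left out. No paired analysis was possible because the labels give no replicate numbers that tie libraries across genotypes. Without counts, values near the floor of 3.51 cannot be told from undetected.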

Other observations

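Ddc, another pyridoxal phosphate-dependent decarboxylase, on the route to dopamine, varied between libraries of a genotype more than between genotypes, an observation made after the values were seen. It stood at 7.77, 4.22, 5.49, 3.56, 6.60 and 4.60 in null libraries, against 5.88, 5.78, 5.86, 4.00, 4.15 and 4.26 in wild-type libraries. Th, tyrosine hydroxylase of the same route, ran in the same order of null libraries, with 7.75, 3.18, 5.36, 2.69, 6.55 and 4.57, against 5.73, 5.61, 5.40, 3.57, 4.20 and 3.56 in wild-type libraries. Gad2 stayed within 12.99 to 13.61 over those null libraries. Maoa, a mitochondrial amine oxidase, fell by 0.97 (limma adjusted p = 0.00522, and 0.0644 over set means), at 6.60 to 8.35 in null libraries against 8.09 to 8.58 in wild-type libraries. Glul, glutamine synthetase, rose by 0.39 (limma adjusted p = 0.000373, and 0.105 over set means).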
